A study of Mus musculus with 5 samples.

Results

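The acute-phase response genes described here are 10 secreted or signalling genes of the mouse liver, Saa1, Saa2, Saa3, Saa4, Lcn2, Orm1, Orm2, Hp, Serpina3n and Socs3, found by symbol among the 32285 genes of the count matrices. They were read in hepatocyte nuclei, defined as barcodes with at least 2000 UMIs (unique molecular identifiers, 1 per captured RNA molecule) and at least 1 UMI of Hnf4a, a transcription factor of hepatocytes. This gave 23267 of 57080 barcodes. All 10 genes passed the filter on low counts. The genes were chosen by their levels in these same libraries, among them the spread of Lcn2 among the chow livers. Their levels by library and by diet are therefore given as a description, and zone, which played no part in the choice, was tested.

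Liver nuclei of male wild-type C57BL6/J mice were profiled by droplet-based 3-prime single-nucleus RNA-seq. The mice ate regular chow (3 libraries) or the AMYLIN liver NASH diet, with 40% of its calories from fat and 20% from fructose, which holds 2% cholesterol and induces metabolic dysfunction-associated steatohepatitis (MASH, 2 libraries), from an age of 10 to 12 weeks for 5 months. Frozen tissue was homogenized and the nuclei were sorted by flow cytometry before capture. The sources do not say for these libraries whether each one holds 1 mouse or several, so p-values measure the spread between libraries, which may be in part technical.

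In the acute-phase response, interleukin-6 and interleukin-1 released during infection or injury reach hepatocytes, where STAT3, NF-kB and C/EBP factors switch on genes for plasma proteins. Serum amyloid A proteins and haptoglobin rise in the blood, whereas albumin and transthyretin, the negative acute-phase proteins, decline.

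Chow replicates 1, 2 and 3 held 4222, 6744 and 7006 hepatocyte nuclei, and MASH replicates 1 and 2 held 2684 and 2611. Between 15125194 and 39316007 UMIs were counted in them per library, with a median of 3871.5 to 5475 UMIs per nucleus. Any pair of libraries shared 23 to 48 barcode sequences. Against endothelial-marker nuclei of the same library (at least 500 UMIs, no Hnf4a UMI and at least 2 endothelial markers), the hepatocyte nuclei had 1.49 to 1.78 times the level of Abcb11, the bile salt export pump, and 1.11 to 1.69 times that of Apob, the structural protein of very low density lipoprotein. Alb, the albumin gene, was at 0.358 to 0.801 of the endothelial-marker level in the 5 libraries, so this abundant hepatocyte RNA did not tell the classes apart. Markers of other classes moved with diet in the hepatocyte nuclei. The summed level of 8 macrophage markers was 39.6 to 52.2 CPM (counts scaled by the UMIs of the library) in chow and 87.4 to 186 in MASH, and that of 7 stellate cell markers was 51.6 to 73.9 and 173 to 204. None of these markers was at 0 in every library. Their part in the values below was not tested, but in nuclei with fewer than 2 markers of any other class the 10 diet differences kept their sign.

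Promoter sequences are shown because the members moved together between libraries and because the near-identical Saa1 and Saa2 have to be told apart. The Saa genes lie side by side on chromosome 7, chr7:46711998-46754313 on GRCm38, with Saa3, Saa4 and Saa1 on the minus strand and Saa2 on the plus strand. The gap between Saa1 and Saa2 is 8809 bases. RefSeq promoters (GRCm38.p6, the 250 bases before the start) were found for 8 of the 10 members, not for Hp and Orm1. The letters TTGCNNAA, a form of the C/EBP site, were in 6 of these 8 on either strand, against 9.56% of 32851 promoters. They were absent from the windows of Socs3 and Serpina3n. The letters GGGNNTTNC, a form of the NF-kB site, were found in Serpina3n among the 8 and in 13.0% of promoters, and TTCNNNGAA, a form of the STAT site, in Socs3 and in 7.02%. None of the matches overlapped another. In the sequences below, written 5′ to 3′ on the strand of the gene, capitals mark the C/EBP letters, or in Serpina3n the NF-kB letters. The stretches stop where the annotated gene begins, or in Serpina3n shortly before it. They span chr7:46742981-46743230 (minus strand), chr7:46751583-46751789 (plus), chr7:46732604-46732853 (minus), chr4:63362199-63362448 (plus) and chr12:104406458-104406707 (plus).
Saa1: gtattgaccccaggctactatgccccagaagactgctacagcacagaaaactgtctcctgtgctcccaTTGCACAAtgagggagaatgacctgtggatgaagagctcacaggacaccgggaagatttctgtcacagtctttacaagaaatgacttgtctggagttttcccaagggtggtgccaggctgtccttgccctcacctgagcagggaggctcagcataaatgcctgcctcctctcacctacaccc
Saa2: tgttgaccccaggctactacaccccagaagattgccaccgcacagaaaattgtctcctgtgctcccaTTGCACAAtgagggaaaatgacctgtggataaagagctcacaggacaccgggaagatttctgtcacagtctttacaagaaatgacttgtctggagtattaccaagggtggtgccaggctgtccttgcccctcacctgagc
Saa4: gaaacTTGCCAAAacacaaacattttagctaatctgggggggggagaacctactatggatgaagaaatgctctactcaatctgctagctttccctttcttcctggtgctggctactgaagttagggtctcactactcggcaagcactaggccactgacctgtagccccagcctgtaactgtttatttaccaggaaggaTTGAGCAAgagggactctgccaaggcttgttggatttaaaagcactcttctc
Orm2: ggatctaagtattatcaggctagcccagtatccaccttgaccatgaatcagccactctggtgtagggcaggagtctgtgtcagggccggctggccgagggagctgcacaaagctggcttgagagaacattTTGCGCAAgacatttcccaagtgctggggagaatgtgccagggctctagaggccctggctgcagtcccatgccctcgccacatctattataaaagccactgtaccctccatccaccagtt
Serpina3n: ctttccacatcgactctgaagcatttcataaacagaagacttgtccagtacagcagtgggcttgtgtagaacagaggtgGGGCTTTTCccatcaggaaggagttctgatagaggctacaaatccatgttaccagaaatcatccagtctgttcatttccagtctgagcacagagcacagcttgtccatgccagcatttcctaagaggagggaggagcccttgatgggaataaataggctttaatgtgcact
The Saa1 and Saa2 stretches were 94.7% identical over 206 aligned bases, and each holds TTGCACAA once. Saa4 holds 2 matches, TTGCCAAA and TTGAGCAA. A match is a run of letters and not a measured binding site. Over whole transcripts (GENCODE), Saa1 and Saa2 were 94.4% identical but shared no run of 100 bases, and Orm1 and Orm2 were 91.0% identical and shared 6.95% of such runs, so that a part of the Orm1 and Orm2 reads may not tell these genes apart. No other annotated gene overlaps a member.

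The first question was how far the members varied among livers on one diet. Levels are given as CPM scaled with TMM factors, which set aside differences in composition between libraries. Saa1, whose product is a major acute-phase lipoprotein component, was at 700 CPM in chow replicate 1, 129 in chow replicate 2 and 8865 in chow replicate 3, against 92.2 and 85.6 in the MASH replicates. Saa2, its near copy, was at 281, 60.8 and 6413 in chow and at 42.8 and 47.8 in MASH. Chow replicate 3 stood far above the other chow livers in both genes, and the MASH replicates were close to each other.

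Serpina3n, a secreted serine protease inhibitor, was at 219, 131 and 3979 CPM in chow and at 42.0 and 43.9 in MASH. Lcn2, lipocalin-2, an iron-scavenging protein of hepatocytes and neutrophils, was at 4.56, 7.17 and 486 CPM in chow and at 41.2 and 32.4 in MASH. The MASH values of Lcn2 thus lay between those of chow replicates 1 and 2 and that of chow replicate 3. Saa3, expressed outside the liver and by macrophages as well as in the liver, was at 2.30, 2.85 and 90.4 CPM in chow and at 5.78 and 3.32 in MASH. Saa4, known as the constitutive member of its family, was at 487, 165 and 1549 CPM in chow and at 56.8 and 66.7 in MASH. It too was highest in chow replicate 3.

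The orosomucoids, plasma carrier proteins, differed in level. Orm1 was at 182, 183 and 806 CPM in chow and at 87.1 and 56.6 in MASH. Orm2 was at 5.98, 1.69 and 37.4 CPM in chow and at 10.3 and 6.30 in MASH. Both stood highest in chow replicate 3, whose Orm2 level was 22.2 times that of chow replicate 2 against 4.39 times for Orm1. Hp, haptoglobin, which binds free haemoglobin, was at 891, 731 and 2778 CPM in chow and at 772 and 603 in MASH. Socs3, a feedback inhibitor of interleukin-6 signalling, was at 84.2, 44.7 and 171 CPM in chow and at 16.6 and 14.9 in MASH. Hp and Socs3 had the narrowest ranges among the chow libraries, with chow replicate 3 at 3.80 and 3.82 times chow replicate 2.

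**Figure D1:**
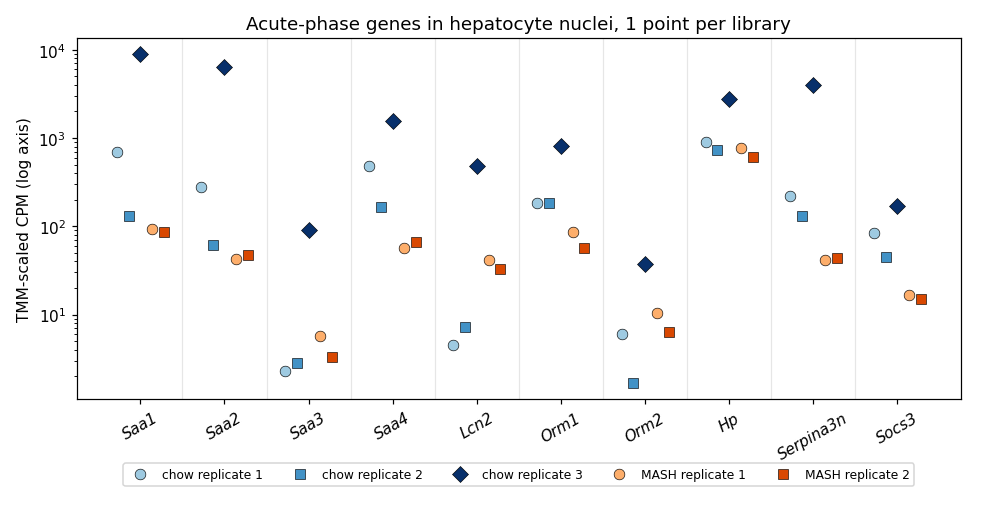
TMM-scaled CPM (log axis) of the 10 acute-phase genes in hepatocyte nuclei, 1 point per library, blue for chow and orange for MASH. Chow replicate 3 is the highest of the 5 libraries for all 10 genes, for example at 171 CPM against 84.2 in the next library for Socs3 and at 6413 against 281 for Saa2.

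All 10 members were highest in chow replicate 3, as were 26.7% of the 15414 genes tested, and this pattern is part of what led to their choice. The ratio of chow replicate 3 to chow replicate 2 ran from 3.80 (Hp) to 106 (Saa2) with a median of 26.3. On the log2 scale the range among the chow libraries had a median of 4.66 over the members and 0.79 over all genes. Saa2 (6.72), Lcn2 (6.71) and Saa1 (6.10) held ranks 2, 3 and 4 of 15414 by this range, and 5 members were among the 20 widest. A range of at least 2 was seen in 8 of 10 members and in 6.96% of all genes, with Socs3 (1.93) and Hp (1.93) just under that line and Orm1 (2.15) just over it. The gap between the MASH replicates was smaller, with a median of 0.29 over the members and 0.22 over all genes. Between chow replicates 1 and 2 alone, 7 of 10 members were higher in replicate 1, by up to 2.43 on the log2 scale for Saa1. In median mitochondrial UMIs (1.01%) and median depth (4786.5 UMIs) chow replicate 3 lay within the ranges of the other libraries. Its summed neutrophil marker level in hepatocyte nuclei, 9.95 CPM, lay between the 2.68 and 10.3 of the other chow libraries. Its TMM factor, 0.756, was the lowest of all libraries, with chow replicate 2 next at 0.909. Its share of barcodes that were hepatocyte nuclei, 63.5%, was the highest, with chow replicate 2 next at 52.2%. Whether any of these measures bears on the high levels of the members was not tested.

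The high Saa1 level of chow replicate 3 was spread over nearly all of its hepatocyte nuclei, while in chow replicate 1 Saa1 lay in a minority. After each nucleus was thinned to 2000 UMIs, Saa1 was seen in 32.2%, 17.1% and 99.1% of nuclei in chow replicates 1, 2 and 3 and in 15.1% and 14.3% in MASH. Nuclei with at least 5 Saa1 UMIs made up 12.8%, 0.52% and 91.2% in chow and 0.52% and 0.69% in MASH. The median nucleus had 13 Saa1 UMIs in chow replicate 3 and 0 in each of the other libraries. In chow replicate 1 the highest 10% of nuclei held 66.7% of the Saa1 UMIs, and the variance was 7.96 times the mean, against 3.37 times in chow replicate 3 and 2.33 times in chow replicate 2. Serpina3n was seen in 29.8%, 20.3% and 96.8% of nuclei in chow and in 7.38% and 8.66% in MASH. Hp was common in all 5 libraries, at 64.4%, 70.2% and 95.9% in chow and 77.2% and 67.1% in MASH. In chow replicate 3 Saa2 was seen in 94.3%, Saa4 in 78.6% and Orm1 in 69.0% of nuclei. Lcn2 was seen there in 43.0%, Socs3 in 21.9%, Saa3 in 6.11% and Orm2 in 5.47%.

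**Figure D2:**
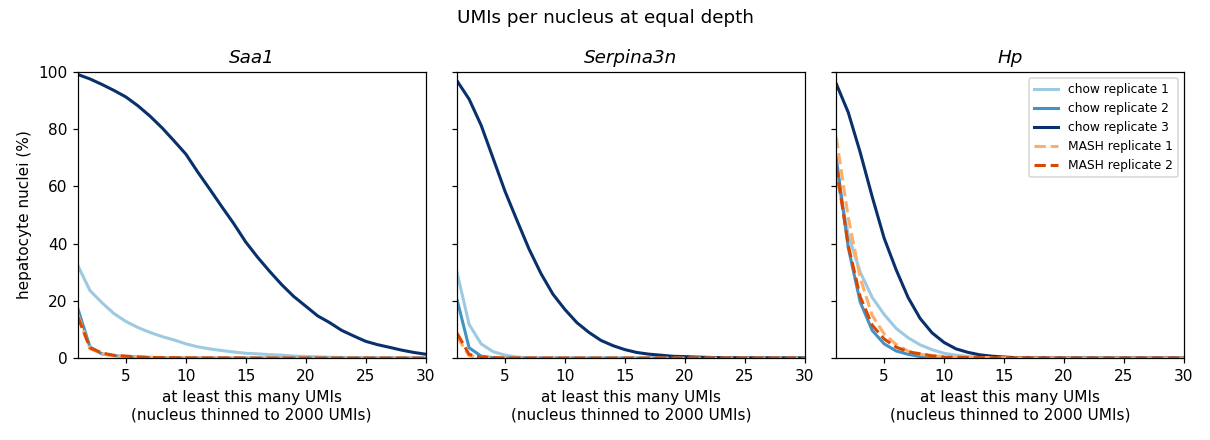
Share of hepatocyte nuclei (%) with at least the number of UMIs on the x axis for Saa1, Serpina3n and Hp, each nucleus thinned to 2000 UMIs, solid lines for chow and dashed for MASH. At 5 UMIs of Saa1, chow replicate 3 stands at 91.2%, chow replicate 1 at 12.8% and the other 3 libraries below 1%. The shares may take in RNA from outside the nucleus, whose part was not tested.

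Pairs of members with a correlation of log2 counts of 0.2 or more across nuclei at equal depth were most numerous in chow replicate 1, at 14 of 45 pairs over 4222 nuclei, against 1 or 2 pairs in each other library. The median over all pairs was 0.087 there and 0.10 in MASH replicate 2. Saa1 and Saa2 correlated at 0.52, 0.25 and 0.54 in chow and at 0.35 and 0.38 in MASH. In chow replicate 1 Saa1 also correlated with Saa4 at 0.51 and with Hp at 0.49, where in chow replicate 3 its correlation with Hp was 0.18. These values describe nuclei that share a library and its free RNA.

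Free RNA sets a floor under these levels, since RNA released during homogenization enters every droplet. Endothelial cells are not a known main source of the hepatic members, so their nuclei served as the background, here in CPM without TMM. In chow replicate 1 Saa1 was at 765 CPM in hepatocyte nuclei and 158 in endothelial-marker nuclei, a ratio of 4.84 (95% exact interval of counts 4.23 to 5.56). In chow replicate 3 it was at 6701 and 2524 CPM, a ratio of 2.66 (2.53 to 2.79). In chow replicate 2 the values were 118 and 117 CPM, a ratio of 1.01 (0.784 to 1.32), and in the MASH replicates the ratios were 0.682 (0.594 to 0.785) and 0.894 (0.784 to 1.02). As a share of UMIs, Saa1 in hepatocyte nuclei of chow replicate 2 and both MASH replicates was thus not above that in endothelial-marker nuclei. The endothelial-marker nuclei were shallower, and free RNA may fill a larger share of a shallow nucleus. A ratio at or under 1 therefore cannot show that hepatocyte nuclei made no Saa1, and Alb was under 1 by the same ratio. Intervals cover counting error only.

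The same split between libraries was seen over the members. Those higher in hepatocyte than in endothelial-marker nuclei by their counting interval numbered 8 of 10 in chow replicate 1, 2 in chow replicate 2, 7 in chow replicate 3, 1 in MASH replicate 1 and 2 in MASH replicate 2. Over all 15414 genes the shares higher by the same interval were 15.3%, 14.6%, 11.8%, 19.3% and 18.3% in that order. Members lower numbered 0, 3, 1, 5 and 1, against 28.6%, 16.1%, 26.2%, 19.5% and 26% of all genes. Saa4 was above the endothelial-marker level in all 5 libraries, from 1.60 times in chow replicate 2 to 3.16 times in chow replicate 1. In MASH it was at 63.0 against 35.7 and 79.8 against 43.0 CPM. In chow replicate 2 its ratio was 1.13 (0.856 to 1.52) over stellate-marker nuclei and 1.43 (0.928 to 2.35) over macrophage-marker nuclei. In the other libraries both intervals lay above 1. Socs3 of MASH replicates 1 and 2 was at 0.850 and 0.784 of the endothelial-marker level and 0.863 and 0.628 of the stellate-marker level. Over macrophage-marker nuclei it was at 2.38 and 2.35 times. Lcn2 of MASH replicates 1 and 2 was at 45.7 and 38.9 CPM in hepatocyte nuclei and at 58.7 and 38.5 in endothelial-marker nuclei. As a share of UMIs its MASH level was thus not shown to be above the endothelial-marker level, with the same limit of depth as for Saa1. In chow replicate 3 Lcn2 was at 368 and 214 CPM, a ratio of 1.72 (1.45 to 2.06). In chow replicate 1 it was at 4.99 CPM against 0 of the endothelial-marker UMIs, which allows up to 2.20 CPM.

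**Figure D3:**
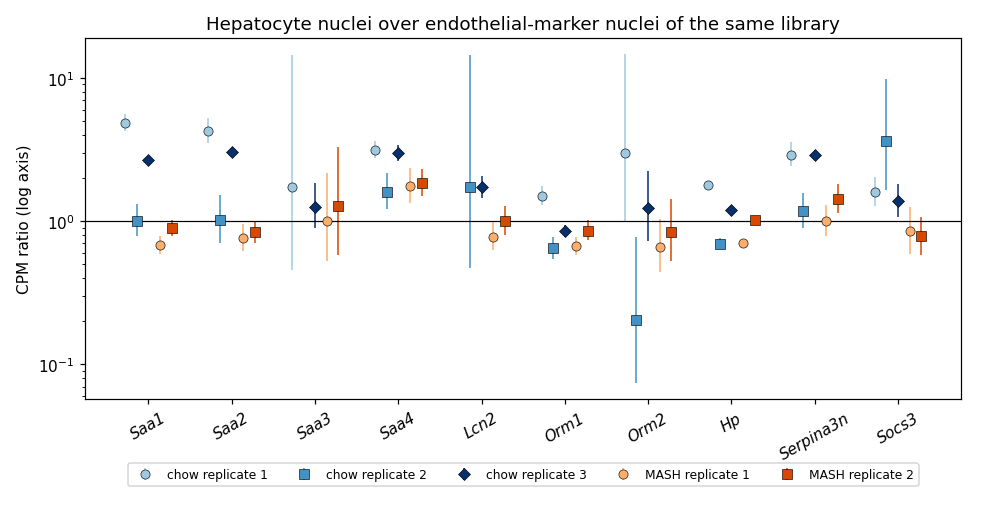
Ratio of CPM (log axis) in hepatocyte nuclei to CPM in endothelial-marker nuclei of the same library for each member, with 95% exact intervals of the counts, and the line at 1 marking equal levels. Lcn2 in chow replicate 1 and Saa3 in chow replicate 2 have no point, since the endothelial-marker nuclei held no UMI. The MASH points lie near or under 1 except for Saa4 (1.76 and 1.86) and Serpina3n of MASH replicate 2 (1.43).

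The background class had shallower nuclei, with a median of 979.5 to 1334.5 UMIs. Thinning makes depth equal but leaves the share of free RNA in a nucleus as it was. At an equal 1000 UMIs per nucleus, Saa1 was seen in 26.2%, 9.95% and 97.1% of hepatocyte nuclei in chow and in 8.61% and 8.77% in MASH, and in 6.53%, 12.6%, 72.7%, 13.0% and 10.4% of endothelial-marker nuclei in the same order. Chow replicate 3 thus had Saa1 in most nuclei of a class that should lack it. Neutrophil-marker nuclei carried Lcn2 apart from this. In chow replicate 1, 149 such nuclei held 1465 Lcn2 UMIs, 13129 CPM, while its hepatocyte nuclei were at 4.99 CPM. The other libraries had 3 to 21 neutrophil-marker nuclei. Saa3 in chow replicate 1 was at 47.6 CPM in stellate-marker nuclei and at 2.52 in hepatocyte nuclei, with 33 UMIs in 1.01% of the 496 stellate-marker nuclei.

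The next question was whether this spread blurred the difference between the diets. In the edgeR quasi-likelihood fit over all genes, the 10 members were on the lower side in MASH. The log2 difference was -5.63 ± 1.94 (SE, n = 3 and 2) for Saa2, -5.18 ± 1.72 for Saa1, -5.07 ± 1.59 for Serpina3n and -3.57 ± 0.90 for Saa4. It was -2.81 ± 1.55 for Saa3, -2.66 ± 0.55 for Socs3, -2.44 ± 0.73 for Orm1, -2.17 ± 1.74 for Lcn2, -1.09 ± 0.62 for Hp and -0.86 ± 1.06 for Orm2. The 95% intervals of Saa3, Lcn2, Orm2 and Hp took in 0, and that of Saa1 reached from -9.16 to -1.21. Since the members were chosen by these levels, the values describe them and no call is drawn from this contrast. By TMM-scaled level the diets did not overlap for 6 of 10 members, as for 54.3% of all genes. Without TMM the number was 5, since Saa2 of chow replicate 2 (55.2 CPM) then lay under MASH replicate 2 (57.3).

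Without chow replicate 3 the differences shrank and some changed side, while the errors fell. Lcn2 went from -2.17 ± 1.74 to 2.58 ± 0.30, with 41.2 and 32.4 CPM in MASH against 4.56 and 7.17 in the remaining chow libraries. Saa3 went to 0.75 ± 0.42 and Orm2 to 1.05 ± 0.59, on the higher side in MASH. Saa1 went to -2.29 ± 0.70, Saa2 to -1.98 ± 0.63 and Serpina3n to -2.09 ± 0.30. Saa4 (-2.46 ± 0.50), Socs3 (-2.09 ± 0.33) and Orm1 (-1.41 ± 0.26) kept their side. Hp, at -0.30 ± 0.29, was close to equal in level between the diets, with an interval from -0.99 to 0.39. The remaining libraries did not overlap for 9 of 10 members, 6 lower and 3 higher in MASH, as for 63.3% of all genes, and overlapped for Hp.

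**Figure D4:**
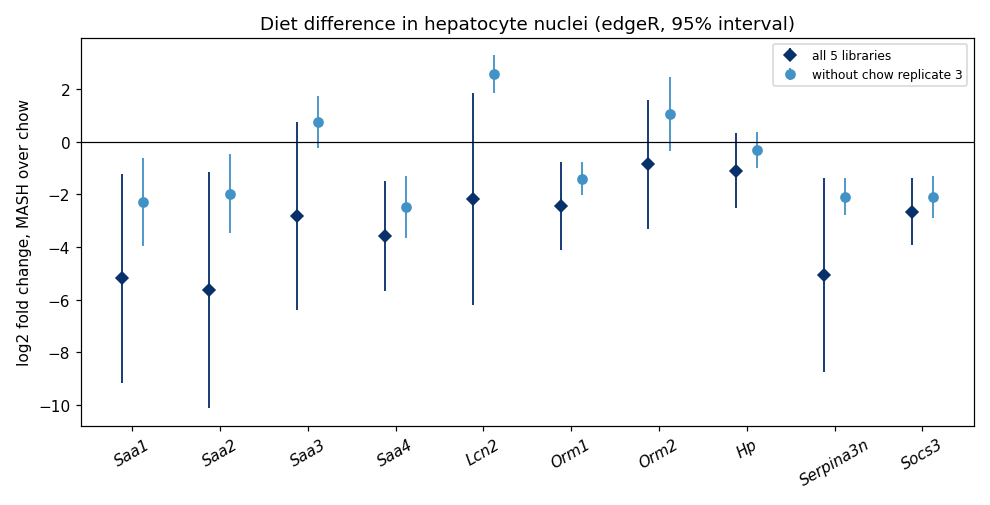
Log2 fold change of MASH over chow with its 95% interval from edgeR for each member, with all 5 libraries (diamonds) and without chow replicate 3 (circles). Lcn2, Saa3 and Orm2 change side when chow replicate 3 is left out, and the Lcn2 interval narrows to 1.88 to 3.29.

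Serpina3n of chow replicates 1 and 2 (219 and 131 CPM) lay above the MASH levels of 42.0 and 43.9, and Socs3 of the same libraries (84.2 and 44.7) above 16.6 and 14.9, so that both genes kept their order of diets whichever chow library was left out. Of 2117 genes called between the diets at an adjusted p under 0.05 (edgeR, 13.7% of those tested), 1427 were higher and 690 lower in MASH, and without TMM, which moved the median of all genes to 0.33 on the log2 scale, 1706 were higher and 334 lower. The 10 members stayed on the lower side without TMM.

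Zone was tested within libraries. Blood enters the liver lobule at the portal triad and leaves at the central vein, and hepatocytes along this path differ in their enzymes. The hepatocyte nuclei of each library were split into 3 equal parts by pericentral minus periportal markers after thinning. The summed pericentral markers were 3.23 to 7.62 times higher in the pericentral than in the periportal part. Since these markers made the split, the ratios describe its width and are no test of it. In a fit with the library as a block over 12647 genes, Lcn2 was lower pericentrally by 0.55 on the log2 scale (-0.55 ± 0.15, edgeR adjusted p = 0.0351) and so was Orm1 (-0.55 ± 0.16, adjusted p = 0.0392). These were the 2 of 10 members called, where 16.3% of genes were called, 8.33% higher and 8.01% lower pericentrally. The pericentral level was the lower one in all 5 libraries for Lcn2 and for Orm1. Neither was called once chow replicate 2, chow replicate 3 or MASH replicate 1 was left out (adjusted p from 0.0592 to 0.103), with differences from -0.54 to -0.63.

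The other members gave no call between zones. Serpina3n was at -0.63 ± 0.24 (edgeR adjusted p = 0.107), Saa2 at -0.61 ± 0.29 (0.178), Saa1 at -0.55 ± 0.23 (0.134), Hp at -0.46 ± 0.17 (0.0931), Socs3 at -0.24 ± 0.15 (0.301) and Saa4 at -0.15 ± 0.15 (0.526). Saa3, at 0.28 ± 0.20 (0.378), and Orm2, at 0.24 ± 0.31 (0.653), lay on the pericentral side. The libraries were far apart in this contrast, which widened the errors.

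In chow replicate 1 the members followed a steep gradient. Saa1 was at 1244, 754 and 384 CPM in the periportal, middle and pericentral part, Saa2 at 515, 321 and 121, Serpina3n at 405, 224 and 118 and Hp at 1420, 984 and 596. Nuclei with at least 5 Saa1 UMIs at equal depth made up 20.5% of the periportal and 5.33% of the pericentral part there. Its pericentral nuclei were the deeper ones, with a median of 5498 UMIs against 4344. This held in every other library too, at 4161.5 against 3562.5 and 5145 against 4306 in chow replicates 2 and 3. In the MASH replicates the medians were 4984 against 4644 and 5611 against 5241. Whether depth bears on the zone differences, those of Lcn2 and Orm1 among them, was not tested. By counting intervals 9 of 10 members were lower pericentrally in chow replicate 1 and none higher, against 12.6% and 24.8% of all genes, with a median log2 difference of -1.28 over the members and 0.089 over all genes.

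Chow replicate 3 had no such gradient. Saa1 was at 6617, 6614 and 6870 CPM in its periportal, middle and pericentral part and Saa2 at 4861, 4737 and 4954, while Serpina3n fell from 3354 over 3122 to 2575. There 3 members were lower and 7 higher pericentrally by counting intervals, against 14.7% and 23.3% of all genes, with a median log2 difference of 0.08 (0.047 over all genes). Among the 7 were Orm2, at 18.7 and 43.8 CPM in the periportal and pericentral part, and Saa3, at 54.1 and 90.5. In chow replicate 2 the Saa1 levels were 124, 114 and 116 CPM. In MASH replicates 1 and 2 they were 114, 110 and 82.0 and 117, 96.5 and 94.5 CPM. The median log2 difference of the members was -0.13 in chow replicate 2 and -0.34 and -0.22 in the MASH replicates. In these libraries 8 or 9 of 10 members were not above the endothelial-marker level in CPM.

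**Figure D5:**
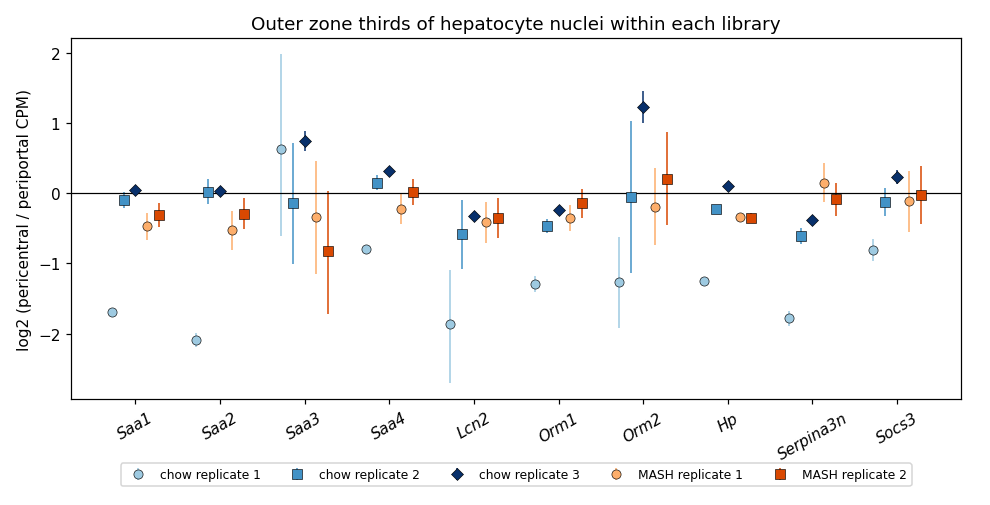
Log2 ratio of pericentral to periportal CPM for each member and library, with 95% exact intervals of the counts, and the line at 0 marking equal levels. Chow replicate 1 lies lowest for 9 of 10 members, down to -2.09 for Saa2, and chow replicate 3 highest for 8 of 10.

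The zone difference was not shown to depend on diet. In the interaction fit 0 of 10 members were called, where 1.29% of 14150 genes were called, 0.587% higher and 0.707% lower. At an unadjusted p under 0.05 in the edgeR fit there were 1964 of the 14150 genes and 2 of the 10 members. These were Saa3 (-1.16 ± 0.32 in MASH minus chow, adjusted p = 0.119) and Serpina3n (0.99 ± 0.37, adjusted p = 0.250). DESeq2 called none of the members. Without chow replicate 1, Saa3 (-1.17), Orm2 (-1.07) and Serpina3n (0.57) were called in the edgeR fit. There 555 of 14007 genes were called, 242 higher and 313 lower. Within the chow libraries alone, Serpina3n (-0.98 ± 0.24, edgeR adjusted p = 0.0280) and Orm1 (-0.72 ± 0.18, 0.0288) were lower and Saa3 (0.57 ± 0.14, 0.0304) higher pericentrally, where 16.9% of genes were called, 9.24% higher and 7.64% lower. Within the MASH libraries alone, Hp (-0.34 ± 0.05), Saa1 (-0.37 ± 0.08), Saa2 (-0.37 ± 0.10), Lcn2 (-0.37 ± 0.12) and Orm1 (-0.24 ± 0.08) were lower pericentrally, where 17.8% of genes were called, 9.26% higher and 8.53% lower. None of these genes was above the endothelial-marker level by its counting interval in either MASH replicate. Their ratios ran from 0.667 (Orm1, MASH replicate 1) to 1.02 (Hp, MASH replicate 2). The part of free RNA in these zone differences was not tested.

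Other genes of the response were read from lists. The lists were drawn up with earlier results of these data known. Their counts and adjusted p-values therefore describe the genes and are no independent support. Calls in each list below are to be read against the shares of all genes given here. Of 24 further positive acute-phase genes, 11 fell in MASH, none rose and 13 were not called, where 4.48% of all genes fell and 9.26% rose. Their median log2 difference was -2.25 against 0.00 over all genes, and 24 of 24 were highest in chow replicate 3, as were 26.7% of all genes. Mt1, a metallothionein, was at 678, 938 and 11008 CPM in chow and at 54.6 and 77.9 in MASH (-5.99 ± 1.47, edgeR adjusted p = 0.0363). Mt2 (-5.02 ± 1.14, 0.0295), the fibrinogen gene Fgg (-3.41 ± 0.85, 0.0380) and the fibrinogen-like Fgl1 (-3.01 ± 0.57, 0.0181) fell as well. Without chow replicate 3, 23 of the 24 were tested, 15 fell and 2 rose, with a median of -1.66, where 16.8% of all genes were called, 7.05% lower and 9.75% higher. Of 8 negative acute-phase genes, 1 fell, Apom, an apolipoprotein of high density lipoprotein (-1.56 ± 0.43, adjusted p = 0.0495), and none did without chow replicate 3. The negative genes were not low in chow replicate 3, where 4 of the 8 were highest. Their median there was 0.51 on the log2 scale above the mean of chow replicates 1 and 2. Ttr was at 694, 1458 and 1833 CPM in chow and Alb at 1931, 5723 and 4730. DESeq2 called 19 of the 24 and 6 of the 8, all lower, and 23.3% of all genes, 10.8% lower and 12.6% higher.

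Of 15 genes of interleukin-6 and JAK-STAT signalling, 2 fell and 1 rose in MASH, to be read against the same shares of all genes. Lifr, the receptor of leukaemia inhibitory factor, was at 960, 1286 and 654 CPM in chow and at 134 and 141 in MASH (-2.81 ± 0.41, edgeR adjusted p = 0.00853), and it was lowest, not highest, in chow replicate 3 among the chow libraries. Stat3, the factor that interleukin-6 activates, fell by 1.73 on the log2 scale (-1.73 ± 0.34, 0.0200). Il22ra1, an interleukin-22 receptor chain, rose from a level at or under 0.101 CPM to 1.49 and 0.961 (4.01 ± 0.66, 0.0122). Of 19 genes of interleukin-1, tumour necrosis factor and NF-kB signalling, 1 fell, the adaptor Myd88 (-1.40 ± 0.28, 0.0203), and without chow replicate 3, 3 rose and 2 fell.

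Of 11 genes of C/EBP, hepatocyte nuclear and glucocorticoid factors, 2 fell, Onecut1, a hepatocyte transcription factor (-3.86 ± 0.89, edgeR adjusted p = 0.0305), and Fkbp5, a glucocorticoid-induced co-chaperone (-2.28 ± 0.52, 0.0294). Onecut1 was at 492, 1193 and 128 CPM in chow, lowest in chow replicate 3. Of 13 immediate early genes, which respond to stress within minutes, none was called. Junb was at 293, 133 and 783 CPM in chow and at 98.3 and 73.2 in MASH (adjusted p = 0.0715), and Ier2 at 57.0, 49.1 and 118 and at 34.0 and 27.9 (0.0743). Without chow replicate 3, 3 immediate early genes rose and 2 fell.

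Outside these members, the gene most like Saa1 over the 5 libraries was 1200007C13Rik, followed by Cxcl1, a neutrophil-attracting chemokine, Ifitm5, Apcs, serum amyloid P, and E530011L22Rik. They differed from Saa1 by a root mean square of 0.66 to 1.01 on the centred log2 scale, among 10522 genes at a mean of at least 5 CPM. Cxcl1 was at 883, 172 and 3224 CPM in chow and at 97.8 and 84.3 in MASH. The genes most like Lcn2 were Ier3, Runx1, Il1rn, the interleukin-1 receptor antagonist, Syt12 and D10Wsu102e, at a root mean square of 1.03 to 1.12. Ier3, like Lcn2, had its MASH values (14.4 and 16.3 CPM) between chow replicates 1 and 2 (2.76 and 2.81) and chow replicate 3 (39.5).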

How the data were processed

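Liver nuclei of 3 chow and 2 MASH libraries, grouped by sample title, were analysed from the deposited matrices, which hold raw UMI counts per gene and barcode that the authors made with Cell Ranger 8.0.1 (per the labels). The methods give a GRCm38 reference without intronic reads. The authors' cell names and doublet calls were not used here, and the labels give no batch. The members and gene lists were chosen with earlier results of these data known. Counts of hepatocyte nuclei were summed per library and tested with edgeR 4.0.16 in R 4.3.3 (quasi-likelihood F test, two-sided, TMM, filterByExpr, Benjamini-Hochberg over all genes tested, called at an adjusted p under 0.05). Each standard error was the absolute log2 fold change divided by the root of its F value. Levels of log2 CPM had a prior count of 2. Zone fits had the library as a block and left zone markers out of the counts of calls. Doublets were kept, and their removal (Scrublet in scanpy 1.11.5, 0.8% per 1000 nuclei) was an alternative, as was DESeq2 1.42.0. The scripts' fits were tested on simulated data. All 10 members were named. Of each pathway list, up to 4 called genes with the largest difference were named, or the 2 with the lowest p, and the 5 genes most like Saa1 and Lcn2. The hepatocyte nuclei held 15125194 to 39316007 UMIs per library.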

Additional observations from a re-analysis of the deposited data

How the results depend on the processing

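Under the alternatives that left no library out, 110 diet differences of members kept their sign and their side of the threshold, 14 passed it, 1 lost it and 5 changed sign, and of the zone differences 65, 9, 2 and 4 did so. Beyond 2117 genes called between diets, DESeq2 called 3598, no filter on low counts 3322 and Storey q-values 4403, and leaving out a library gave 216 (MASH replicate 2) to 3298 (chow replicate 1), with 280 without MASH replicate 1 and 859 without chow replicate 2. As a description, since the choice of members used this contrast, 2 members (Saa4 and Socs3) were past the threshold at first and 1 with a stricter filter, 6 by DESeq2, with no filter and by Storey, all lower in MASH, 5 without chow replicate 3 (1 higher) and none without either MASH replicate. Same-numbered libraries correlated at -0.10 and -0.20 in their deviations from the diet mean, which shows no pairing by replicate number. It cannot exclude one, since the deviations of 2 MASH libraries mirror each other. With the replicate block, in which chow replicate 3 stands alone in its block and adds nothing to the diet term, 1937 genes were called and 6 members were past the threshold, 4 lower and 2 higher (Lcn2 and Orm2), and Lcn2 (2.67), Orm2 (1.31) and Saa3 (0.77) turned to the higher side. In limma-voom, added after the data were seen, Lcn2 (0.52) and Orm2 (0.11) did so too. With a library left out, Saa3 ran from -3.40 to 0.75, Lcn2 from -2.78 to 2.58 and Orm2 from -1.44 to 1.05, each turning without chow replicate 3. The share of nuclei with an Hp UMI differed by 3.45 percentage points (MASH minus chow) before thinning and by -4.69 after it, within the spread of the libraries.

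Between zones 1276 (without chow replicate 2) to 1902 genes were called with a library left out. Saa3 then ran from -0.29 to 0.43, Saa4 from -0.27 to 0.053 and Orm2 from -0.40 to 0.60. Orm2 was at -0.0071 in DESeq2. In the MASH libraries alone, also added after the data were seen, Orm2 was at -0.0071, Saa3 at -0.55 and Serpina3n at 0.031. A split at the median score lost the Lcn2 call (-0.37). In the zone by diet fit, no filter gave 536 calls against 183, and leaving out a library 1 (MASH replicate 1) to 555 (chow replicate 1), with 5 without MASH replicate 2. There the difference ran from -0.32 to 0.66 for Saa1, from -0.36 to 0.86 for Saa2, from -0.28 to 0.35 for Saa4, from -1.07 to 0.99 for Orm2, from -0.23 to 0.50 for Hp and from -0.11 to 0.54 for Socs3, lowest without chow replicate 1, and Orm2 was at 0.037 in DESeq2. Saa3 was called in nuclei without other markers, and Saa3 and Serpina3n with no filter, where 149 of 13177 and 536 of 21012 genes were called. The cause of these changes was not tested. With 2 MASH libraries and few UMIs of Saa3, Orm2 and Lcn2, differences under the spread of the chow libraries could not be seen.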
